A study of Arabidopsis thaliana with 2 samples.

Results

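The genes described here are 10 loci of Arabidopsis thaliana that build the cell-surface system for sensing microbes and damage: FLS2, EFR, PEPR1, PEPR2, CERK1, LYK5, BAK1, SOBIR1, BIK1 and RBOHD. They were picked by locus identifier, with earlier results of these data known, from the 33602 loci of the count tables, and all 10 passed the minimum of 10 counts in at least 1 library that left 20274 measured genes. The study sequenced RNA from explants cut from first-pair rosette leaves of plants 12 days after sowing, to find genes that the NAC transcription factor NAC1 switches on, in the context of wounding and regeneration named in the series title. Both groups carry the transgene pER8:3xFlag-NAC1 in Col-0, in which estradiol switches on a tagged NAC1 copy. The estradiol group was kept on B5 medium with β-estradiol dissolved in DMSO, and the control group on B5 medium with DMSO without estradiol. Each group is 1 library. No test of the treatment exists, and every difference below is between 2 libraries. The sources used here do not give the promoter that drives the estradiol-responsive factor, the number of independent lines or the time on the medium.

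Pattern recognition receptors sit in the plasma membrane and bind molecules typical of microbes, or peptides released by injured plant cells. A ligand-bound receptor recruits a co-receptor kinase, and the pair phosphorylates cytoplasmic kinases, which in turn activate an NADPH oxidase, calcium channels and MAP kinases. In leaves this system is known for the oxidative burst and for stomatal closure on contact with bacteria, and several of its parts are themselves transcriptionally induced by wounding or by their ligands.

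Total gene counts were 48350705 in the estradiol library and 39799127 in the control library. NAC1 (AT1G56010), the check of the transgene, had 28380 counts in the estradiol library and 466 in the control library, a ratio of 49.4 (95% counting interval 45.1 to 54.3). Transgene and native reads are not separated in this count, and the locus overlaps another annotated gene. The 5 mesophyll markers summed to 7803 CPM (counts per 1000000 of the TMM-scaled library size) with estradiol and 11068 CPM in the control, and the interval of each ratio lay below 1. The 5 guard-cell markers summed to 49.9 CPM with estradiol and 77.8 CPM in the control, also with 5 of 5 intervals below 1. The 5 vascular markers summed to 316 CPM with estradiol and 424 CPM in the control, with 5 of 5 intervals below 1. The 4 epidermal markers summed to 222 CPM with estradiol and 239 CPM in the control, with 3 of 4 intervals below 1. Over all measured genes the interval lay below 1 for 35.3% and above 1 for 36.7%. The intervals of the markers hold counting error only and no variation between libraries. Of 5 root markers 3 were measured, and these summed to 122 CPM with estradiol and 92.9 CPM in the control. Of these 3, PYK10 was higher with estradiol at a ratio of 1.63 (1.54 to 1.72), SCR had a log2 ratio of -0.07 with an interval that held no change, and WOX5, with 4 counts with estradiol and 13 in the control, had a log2 ratio of -1.89 with its interval below no change. The root markers PLT1, at 0 in both libraries, and CASP1, with 1 count with estradiol and 6 in the control, were below the minimum. The part of these shifts in the ratios below was not tested, and in whole explants fewer cells of a type and less RNA per cell cannot be told apart.

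None of the 10 genes changed past 2-fold between the libraries. Receptor and co-receptor genes were mostly somewhat higher with estradiol, by 1.31-fold for PEPR2 to 1.86-fold for CERK1, while PEPR1, LYK5, the kinase gene BIK1 and the oxidase gene RBOHD were lower. By the size rule, under which the whole 95% counting interval of the ratio must lie above 2 or below 0.5, 0 of 10 were called higher and 0 of 10 lower, against 5.38% and 4.64% of all measured genes. The interval lay wholly above 1 for 6 of the 10 (36.7% of all measured genes) and wholly below 1 for 4 (35.3%). With a threshold of 1.5-fold, CERK1 was past it on the higher side (8.92% of measured genes) and PEPR1 and BIK1 on the lower side (9.91%). The median log2 ratio of the 10 was 0.39, with a range of -0.82 to 0.89, beside a median of 0.01 over all measured genes. These intervals hold counting error only. With an assumed coefficient of variation of 0.2 in each library they held 1 for 8 of the 10 genes and for 81.8% of all measured genes, and CERK1 (1.06 to 3.24) and PEPR1 (0.323 to 0.985) were the 2 whose interval did not.

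**Figure D1:**
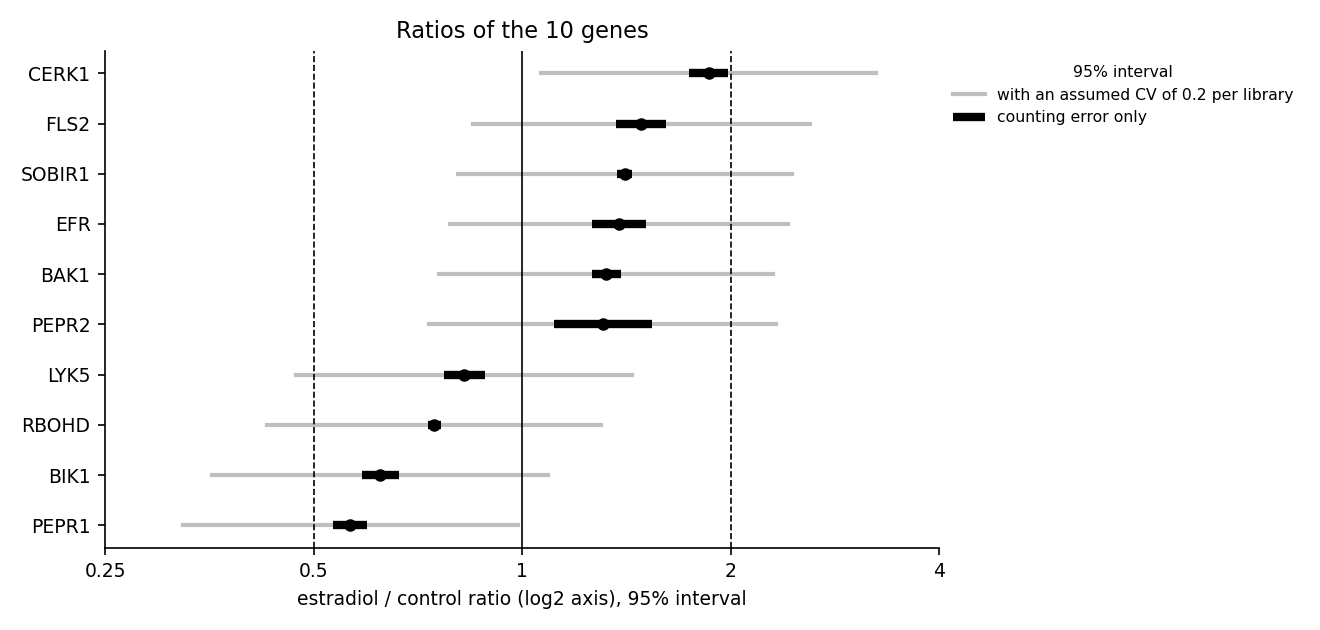
Ratio of the estradiol to the control library for each of the 10 genes on a log2 axis, with the 95% counting interval in black and the interval with an assumed coefficient of variation (CV) of 0.2 per library in grey; dashed lines mark 0.5 and 2. The points run from CERK1 at 1.86 to PEPR1 at 0.564, and no point lies past a dashed line.

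The upstream sequences of the 10 genes shared a short motif. The W-box core is the letters TTGAC on either strand, to which WRKY transcription factors bind. It was found in the 250 bases before the annotated start of 10 of 10 genes. Among loci with an annotated mRNA product, 44.6% of 31345 windows of the same length held it. The longer forms TTGACC or TTGACT were present in 6 of 10 windows (PEPR1, CERK1, BAK1, SOBIR1, BIK1 and RBOHD), against 28.0% of all windows. A W-box core occurred at least 2 times in PEPR1, PEPR2 and BAK1 (13.8% of all windows) and 3 times in PEPR1 (at least 3 in 3.21% of all windows). The letters CACG on either strand, a core of NAC-binding sites that is also part of other motifs, were found in 7 of 10 windows, against 45.1% of all, and were not found in the windows of CERK1, FLS2 and RBOHD. A match describes letters and is not a binding site. The windows of the gene with the highest ratio (CERK1), the gene with the lowest (PEPR1), its close relative with a ratio on the other side of 1 (PEPR2) and the co-receptor gene with 2 adjacent cores (BAK1) are shown 5′ to 3′ along the gene, with W-box cores of either strand in capitals. They come from the RefSeq assembly TAIR10.1, at chr3:7618672-7618921 on the minus strand, chr1:27483990-27484239 on the plus strand, chr1:6106073-6106322 on the plus strand and chr4:16090833-16091082 on the minus strand.
CERK1: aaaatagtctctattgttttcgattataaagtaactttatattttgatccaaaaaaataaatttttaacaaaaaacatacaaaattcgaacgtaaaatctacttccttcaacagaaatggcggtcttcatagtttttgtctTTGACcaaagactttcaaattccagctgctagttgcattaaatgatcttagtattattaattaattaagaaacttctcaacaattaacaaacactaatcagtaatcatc
PEPR1: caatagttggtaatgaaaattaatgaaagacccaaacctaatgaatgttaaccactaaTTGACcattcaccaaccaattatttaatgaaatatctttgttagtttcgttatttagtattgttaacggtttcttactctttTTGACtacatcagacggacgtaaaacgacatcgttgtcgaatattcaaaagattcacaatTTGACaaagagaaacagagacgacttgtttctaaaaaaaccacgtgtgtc
PEPR2: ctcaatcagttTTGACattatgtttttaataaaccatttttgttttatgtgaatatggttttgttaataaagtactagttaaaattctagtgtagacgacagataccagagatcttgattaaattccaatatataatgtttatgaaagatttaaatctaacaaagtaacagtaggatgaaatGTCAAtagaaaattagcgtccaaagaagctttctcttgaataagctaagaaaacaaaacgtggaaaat
BAK1: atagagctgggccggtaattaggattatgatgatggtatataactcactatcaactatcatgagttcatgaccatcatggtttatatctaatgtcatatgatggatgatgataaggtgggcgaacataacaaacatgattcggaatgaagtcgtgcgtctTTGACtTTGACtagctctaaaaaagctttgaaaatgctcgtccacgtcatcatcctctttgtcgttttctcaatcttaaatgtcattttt
In the CERK1 window the core starts 109 bases before the gene, in the PEPR1 window the cores start 192, 110 and 50 bases before it, and in the BAK1 window they start 90 and 84 bases before it. Because 10 of 10 windows held a W-box core, its presence could not be compared with the direction of the ratio.

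**Figure D2:**
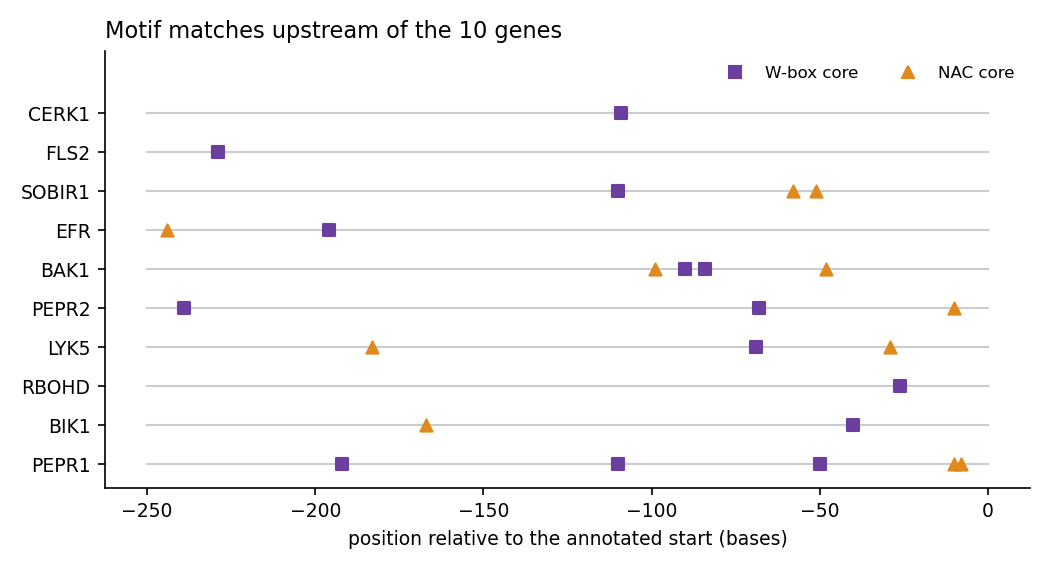
Positions of W-box core and NAC core matches, on either strand, in the 250 bases before the annotated start of each gene, ordered from the highest ratio (CERK1, top) to the lowest (PEPR1, bottom). Each of the 10 lines carries at least 1 W-box core, and PEPR1 carries 3.

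Among the leucine-rich repeat receptors for bacterial ligands, both genes were higher with estradiol. FLS2 (AT5G46330), the flagellin receptor, had 1622 counts (33.3 CPM) in the estradiol library and 886 counts (22.4 CPM) in the control library. Its ratio was 1.49 (1.37 to 1.61), and 13.7% of measured genes had a higher one. EFR (AT5G20480), which binds bacterial elongation factor Tu, had 1298 counts (26.7 CPM) with estradiol and 764 counts (19.3 CPM) in the control, a ratio of 1.38 (1.26 to 1.51). The balance between these receptors was alike in the 2 libraries: FLS2 took 55.5% of their summed counts with estradiol (exact binomial interval 53.7% to 57.4%) and 53.7% in the control (51.3% to 56.1%). FLS2 shares 172 exonic bases with RWA1 on the opposite strand, which had a ratio of 1.01 (0.937 to 1.09). EFR has a stretch of 106 bases with 97.2% identity to AT1G09995, a locus with 332 counts with estradiol and 184 in the control.

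The receptors for plant elicitor peptides, which signal damage, were on opposite sides of 1. PEPR1 (AT1G73080) had 2075 counts (42.6 CPM) in the estradiol library and 2983 counts (75.5 CPM) in the control library, a ratio of 0.564 (0.533 to 0.597) and the lowest of the 10. PEPR2 (AT1G17750), which binds a subset of the same peptides, had 401 counts (8.23 CPM) with estradiol and 249 counts (6.30 CPM) in the control, a ratio of 1.31 (1.11 to 1.54). PEPR1 was the more abundant transcript of the pair in each library, but its share of their summed counts was 83.8% with estradiol (82.3% to 85.2%) and 92.3% in the control (91.3% to 93.2%). These shares do not depend on how the libraries are scaled, and their intervals did not overlap. The intervals cover the counting error of 1 library each and no variation between libraries. PEPR2 had the fewest counts of the 10 genes and shares 14 exonic bases with CSTF77 on the opposite strand.

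The chitin receptor genes also moved apart. CERK1 (AT3G21630), the LysM receptor kinase required for chitin signalling, had 3159 counts (64.9 CPM) in the estradiol library and 1380 counts (34.9 CPM) in the control library. At 1.86 (1.74 to 1.98) its ratio was the highest of the 10, and 8.66% of measured genes had a higher one. LYK5 (AT2G33580), the LysM receptor with high affinity for chitin that partners CERK1, had 1674 counts (34.4 CPM) with estradiol and 1647 counts (41.7 CPM) in the control, a ratio of 0.825 (0.770 to 0.883). CERK1 held 65.4% of the summed counts of the pair with estradiol (64.0% to 66.7%) and 45.6% in the control (43.8% to 47.4%). In percentage points, this was the largest difference in share among the 7 pairs and families plotted. On the log2 scale, PEPR2 (0.385) and PEPR1 (-0.825) lay at least as far apart as CERK1 (0.893) and LYK5 (-0.278). The shares are of counts not divided by exon length, which is 2181 bases for CERK1 and 2774 for LYK5. A share below 50% in the control therefore does not place CERK1 below LYK5 per kilobase.

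Both co-receptor genes were higher with estradiol. BAK1 (AT4G33430), the SERK-family kinase that joins FLS2, EFR and the PEPRs after ligand binding, had 4453 counts (91.4 CPM) in the estradiol library and 2734 counts (69.2 CPM) in the control library, a ratio of 1.32 (1.26 to 1.39). SOBIR1 (AT2G31880), the adaptor kinase of receptor-like proteins, which lack a kinase domain of their own, had 18108 counts (372 CPM) with estradiol and 10455 counts (265 CPM) in the control, a ratio of 1.41 (1.37 to 1.44). SOBIR1 took 80.3% of the summed counts of this pair with estradiol (79.7% to 80.8%) and 79.3% in the control (78.6% to 80.0%). SOBIR1 shares 478 of its 2084 exonic bases with RAP on the opposite strand, which had a ratio of 0.749 (0.704 to 0.797). BAK1 shares 78 with AT4G33420, at 2.88 (2.48 to 3.35). The sources used here do not state the strand setting of the counting, so the counts of FLS2, PEPR2, BAK1 and SOBIR1 are uncertain in these stretches.

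Downstream of the receptors, the kinase gene BIK1 and the oxidase gene RBOHD were lower with estradiol. BIK1 (AT2G39660), the receptor-like cytoplasmic kinase that the receptor complexes phosphorylate, had 1825 counts (37.5 CPM) in the estradiol library and 2375 counts (60.1 CPM) in the control library, a ratio of 0.624 (0.586 to 0.663). RBOHD (AT5G47910), the NADPH oxidase of the immune oxidative burst and a substrate of BIK1, had 15573 counts (319.8 CPM) with estradiol and 16923 counts (428 CPM) in the control, a ratio of 0.747 (0.731 to 0.763). PBL1, the closest relative of BIK1, was lower as well, at 0.713 (0.675 to 0.752), and BIK1 held 42.2% of the counts of that pair with estradiol (40.8% to 43.7%) and 45.5% in the control (44.2% to 46.9%). RBOHF, the other main leaf NADPH oxidase gene, went the other way, with a ratio of 1.52 (1.41 to 1.64). RBOHD held 89.1% of the counts of the RBOHD and RBOHF pair with estradiol (88.7% to 89.6%) and 94.4% in the control (94.0% to 94.7%).

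**Figure D3:**
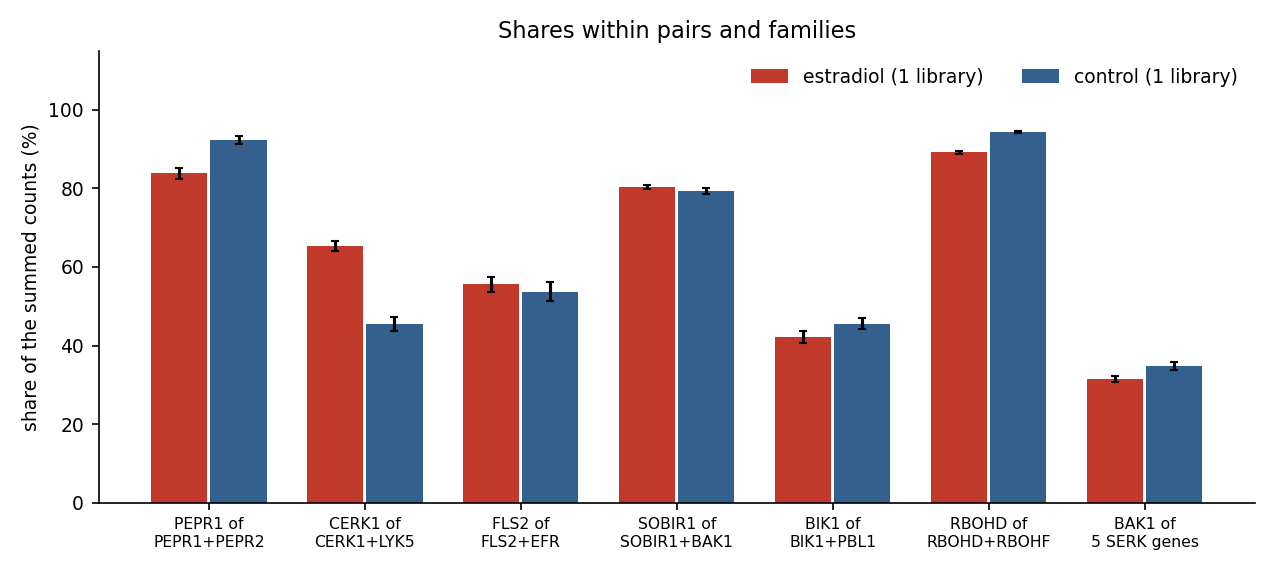
Share of 1 gene in the summed counts of its pair or family in the estradiol library (left bar of each pair) and the control library (right bar), in percent, with exact 95% binomial intervals that cover counting error only. CERK1 stood at 65.4% against 45.6%, PEPR1 at 83.8% against 92.3%, and the FLS2 bars at 55.5% against 53.7%.

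Levels per transcript length spanned a wide range and were headed by the same pair of genes in both libraries. The level is given as CPM per kilobase of annotated exon. SOBIR1 stood at 178 with estradiol and 127 in the control, and RBOHD at 88.8 with estradiol and 119 in the control. At the lower end PEPR2 stood at 2.22 with estradiol and 1.70 in the control, so that the highest level was 80.4 times the lowest with estradiol and 74.8 times in the control. FLS2 (7.84 with estradiol, 5.28 in the control) and EFR (6.19 with estradiol, 4.49 in the control) came just above PEPR2 in both. The middle of the order differed: BAK1 (31.8), CERK1 (29.7), BIK1 (18.8), LYK5 (12.4) and PEPR1 (11.1) followed each other with estradiol, whereas in the control the order was BIK1 (30.2), BAK1 (24.1), PEPR1 (19.7), CERK1 (16.0) and LYK5. The counting intervals of neighbours in these orders did not overlap, except those of CERK1 (15.2 to 16.9) and LYK5 (14.3 to 15.8) in the control. The lengths are those of the TAIR10.1 gene models, which the counting need not have used, and such an error would move a gene in both libraries alike. Summed over the 10 genes, the level without regard to length was 1031 CPM with estradiol and 1022 CPM in the control, a ratio of 1.01 (0.995 to 1.02). SOBIR1 made up 36.1% of these summed counts with estradiol and 25.9% in the control, and RBOHD 31.0% with estradiol and 41.9% in the control.

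**Figure D4:**
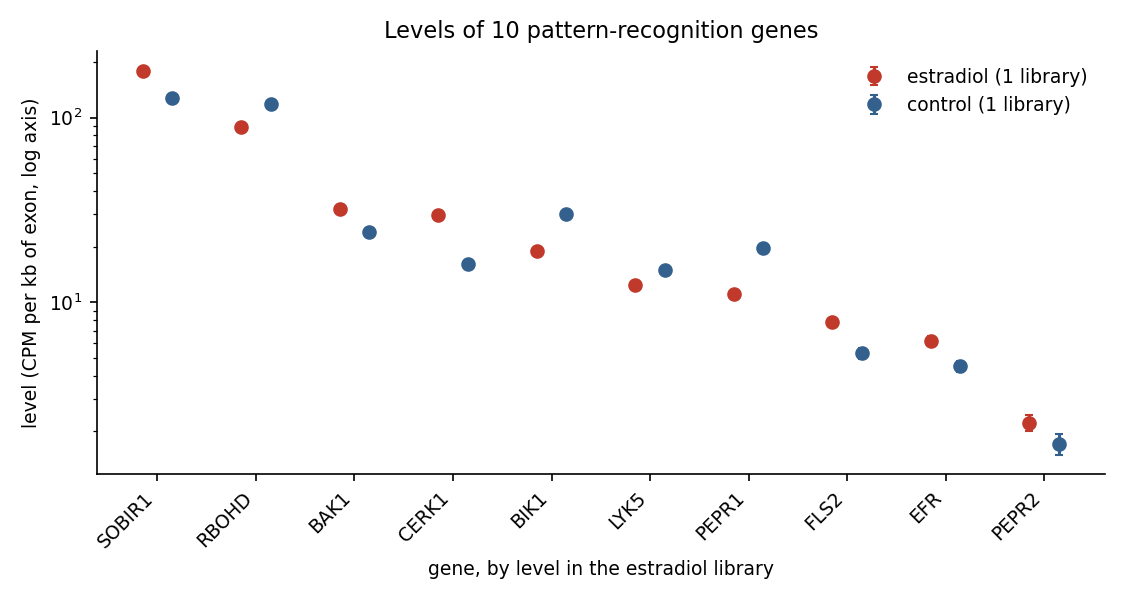
Level of each of the 10 genes in CPM per kilobase of exon, on a log axis, in the estradiol library (left point, red) and the control library (right point, blue), with exact Poisson 95% intervals for counting error, which are mostly smaller than the points. SOBIR1 and RBOHD head both libraries, at 178 and 88.8 with estradiol and 127 and 119 in the control, and PEPR2 is lowest in both.

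Other genes of the pathway were compared in 9 lists, of which 113 genes were measured. By the size rule 17 of these were higher with estradiol (5.38% of all measured genes) and 6 were lower (4.64%), and their median log2 ratio was 0.25. Other pattern receptors had 4 of 13 measured genes called higher and 0 lower, and the median log2 ratio was 0.62. With the assumed coefficient of variation of 0.2, 2 of the 13 were called higher, against 638 of all 20274 measured genes. RLP23, which signals through SOBIR1 and BAK1, had 6166 counts with estradiol and 207 in the control, a ratio of 24.2 (21.0 to 27.9), far beyond the 1.41 of SOBIR1 itself. RLP42, another partner of SOBIR1, had a ratio of 3.55 (3.13 to 4.04), with copies of at least 90% identity that make its count uncertain, RLP30 one of 2.51 (2.13 to 2.98) and the LysM protein gene LYM2 one of 2.36 (2.23 to 2.50). Among co-receptors and BAK1-binding kinases the rule called 1 of 12 higher and 0 lower, around a median of 0.01. The called gene was SERK4, a close relative of BAK1, at 2.14 (2.04 to 2.24), with 90.8% identity to SERK5 over 1737 bases. IOS1, a receptor kinase found in complex with BAK1, stood at 2.05 (1.89 to 2.23) and SERK1 at 0.565 (0.458 to 0.694). BAK1 accounted for 31.4% of the counts of the 5 SERK genes with estradiol (30.7% to 32.2%) and 34.8% in the control (33.7% to 35.9%). Genes for the maturation of EFR and other proteins in the endoplasmic reticulum were called higher in 4 cases of 8, none of the 8 was called lower, and the median was 0.94. With the assumed coefficient of variation of 0.2, 0 of these 8 were called, and 0 of the 12 co-receptor list genes. In that list CRT3, a calreticulin that EFR needs to accumulate, had a ratio of 3.23 (3.14 to 3.34), ERDJ3B one of 2.62 (2.52 to 2.73), SDF2 one of 2.11 (2.01 to 2.20) and the chaperone gene BIP2, which has a near-identical copy in BIP1, one of 2.11 (2.06 to 2.16), beside 1.38 for EFR.

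**Figure D5:**
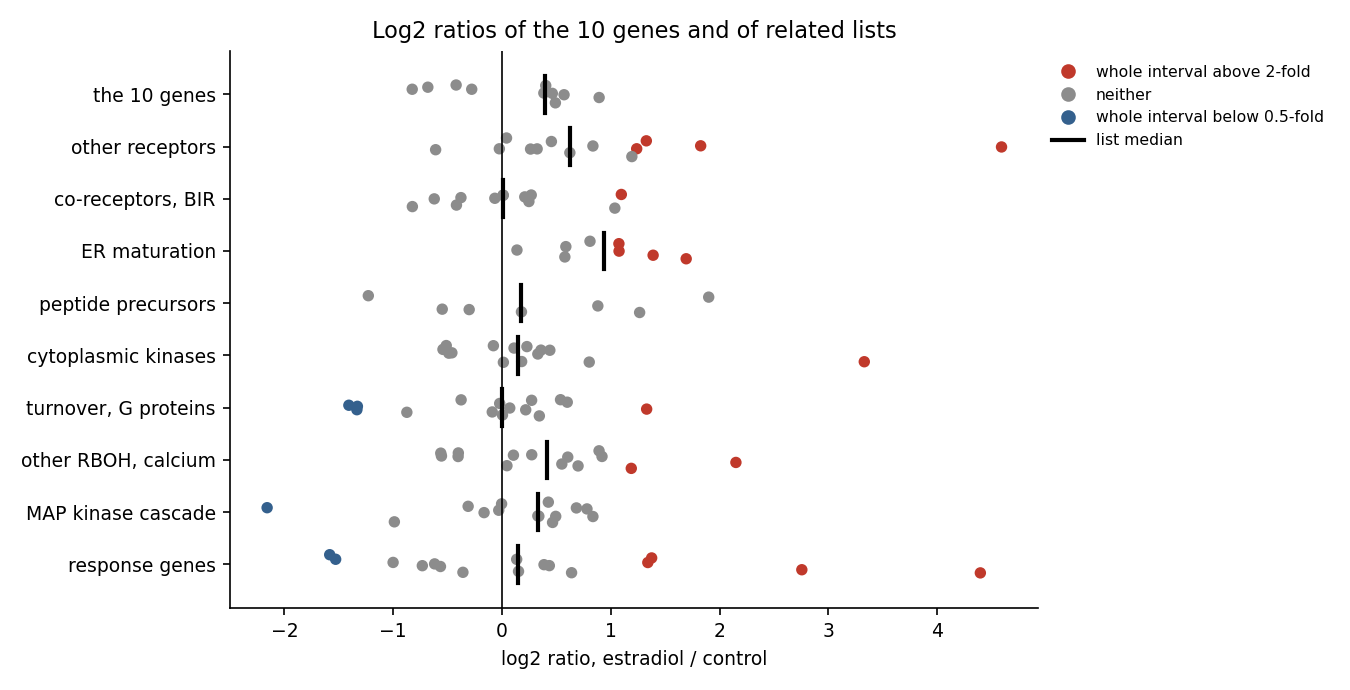
Log2 ratio of estradiol to control for each measured gene of the 10 described here (top row) and of the 9 related lists, with the list median as a black bar and genes past the size rule in red (higher) or blue (lower). The 10 genes lie between -0.82 and 0.89 with a median of 0.39, and the highest points belong to RLP23 (4.59) and NHL10 (4.40).

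By the size rule, 5.38% of all measured genes were higher and 4.64% lower. In the list of peptide precursors, which holds the ligand genes of PEPR1 and PEPR2, 0 of 7 measured genes were called in either direction. The median log2 ratio of 0.18 is that of RALF23, a precursor gene of a peptide that acts through FER and not through the PEPRs, with 4843 counts with estradiol and 3471 in the control. PROPEP3 had 71 counts with estradiol and 31 in the control, a ratio of 1.86 (1.20 to 2.93), PROPEP5, whose locus overlaps another annotated gene, had 35 with estradiol and 67 in the control, a ratio of 0.424 (0.273 to 0.647), and AT4G37290 had 78 with estradiol and 26 in the control, a ratio of 2.43 (1.54 to 3.95). Cytoplasmic kinases other than BIK1 had 1 of 14 called higher and 0 lower, around a median of 0.15. The called locus was AT4G17660, with 266 counts with estradiol and 21 in the control, a ratio of 10.3 (6.59 to 16.9), while RIPK (0.687, 0.658 to 0.716) and AT5G47070 (0.701, 0.668 to 0.736) were near the 0.624 of BIK1. Ubiquitin ligase and G-protein genes, several of which control the stability of FLS2 or BIK1, had 1 of 15 called higher and 3 lower, around a median of 0.00. PUB25 and PUB26, whose products ubiquitinate BIK1, stood at 0.397 (0.362 to 0.435) and 0.398 (0.361 to 0.439), and PUB22 at 0.377 (0.319 to 0.444), whereas PUB24 stood at 2.52 (2.29 to 2.77). With the assumed coefficient of variation of 0.2, 0 genes of this list were called in either direction. Of all 20274 measured genes, 638 were then higher and 362 lower. CPK28, a kinase that promotes BIK1 turnover, was at 0.546 (0.528 to 0.564) and was not called.

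Next to RBOHD, the remaining RBOH genes and calcium-related genes had 2 of 14 called higher and 0 lower, around a median log2 ratio of 0.41. Over all measured genes the rule called 5.38% higher and 4.64% lower. RBOHC, the NADPH oxidase known from root hairs, had 139 counts with estradiol and 25 in the control, a ratio of 4.51 (2.93 to 7.21), and the calcium pump gene ACA10, which overlaps another gene, had a ratio of 2.28 (2.21 to 2.36). CPK11 was at 1.89 (1.71 to 2.09). With the assumed coefficient of variation of 0.2, 1 gene of the list was higher. In the MAP kinase cascade the rule called 0 of 14 higher and 1 lower, around a median of 0.33. The called gene was AP2C1, a phosphatase that acts on MAP kinases, at 0.224 (0.209 to 0.239), with similar copies over part of its transcript, and MKK9 (0.504, 0.478 to 0.530) and MKK1 (1.79, 1.69 to 1.89) came next. Genes induced by FLS2 and related receptors were called in both directions, 4 of 16 higher and 2 lower, around a median of 0.14. NHL10 had 376 counts with estradiol and 14 in the control, a ratio of 21.8 (12.8 to 40.3), and AT1G26380 had a ratio of 6.78 (5.69 to 8.12). SARD1 and CYP81F2 were also higher, at 2.60 (2.44 to 2.77) and 2.53 (2.35 to 2.74), the locus of SARD1 overlapping another gene. WRKY22 and WRKY29, transcription factor genes placed downstream of FLS2, were lower, at 0.334 (0.300 to 0.371) and 0.346 (0.278 to 0.428), and the locus of WRKY29 overlaps another gene. With the assumed coefficient of variation of 0.2, 2 of this list were higher and 0 lower. Of all 20274 measured genes 638 were then higher and 362 lower. FRK1, the flagellin-induced kinase gene used as a reporter of FLS2 signalling, was at 1.56 (1.39 to 1.75), close to the 1.49 of FLS2. The list genes with log2 ratios nearest to the median of the 10 were MYB51 (0.39), MKP1 (0.43) and PBL2 (0.36), a likeness that rests on 1 ratio from 2 libraries. The loci of RLP23, LYM2, SERK1, CPK28, MKK1, FRK1, WRKY33, WRKY53 and PBL2 also overlap an annotated neighbour.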

How the data were processed

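The authors deposited whole-number counts per locus, in a separate table for each library, covering 33602 loci together with 5 HTSeq summary lines that were kept apart. Per the submitters' processing notes, the tools were FastQC, HTSeq and DESeq, with TAIR10 as the genome build. Versions, aligner, annotation release and strand setting are absent from those notes. Ambiguous reads were 1.91% in the estradiol and 2.05% in the control library. Reads outside features were 0.693% in the estradiol and 0.742% in the control library.

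Libraries were scaled with TMM factors (edgeR 4.0.16, R 4.3.3), 1.007 for estradiol and 0.993 for the control. Genes with at least 10 counts in either library were measured. Ratios are estradiol over control with 95% Clopper-Pearson intervals given the summed count, and log2 ratios use a prior count of 0.5. Calls required the whole interval above 2 or below 0.5. Intervals cover counting error only, and without molecular identifiers reads are not independent molecules. The calculation was tested on simulated counts with counting error only, a setting that holds no variation between libraries. With 1 library per group no p-value is given.

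The members and lists were chosen with earlier results of these data known. Besides the 10 members and NAC1, the rule named the 3 genes of each list whose interval bound lay farthest from 1 and the 3 list genes nearest to the members' median log2 ratio. Other genes were named after their values were seen. Some spell out small counts or are relatives of members. Some passed the size rule, as RLP30, SDF2, PUB22, SARD1, CYP81F2 and WRKY29 did, and others, such as FRK1 and CPK28, did not. A list locus was kept where TAIR10.1 gives it the written symbol or none, which left out AT5G09978, AT1G61380 and AT4G35600. Lengths, overlaps and upstream windows come from TAIR10.1, in which 10 of 10 members have a locus tag. The count tables hold no coordinates, so none were carried between TAIR10 and TAIR10.1. Copies are transcripts with at least 90% identity over 100 bases.

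Alternatives were DESeq2 1.42.0 size factors, total counts, other count minimums, fold thresholds and prior count, and an assumed variation between libraries.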

Additional observations from a re-analysis of the deposited data

How the results depend on the processing

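The log2 ratios of the 10 genes moved by less than their counting intervals under DESeq2 size factors, total gene counts as library size and a prior count of 2, for example between 0.89 and 0.91 for CERK1 and between -0.82 and -0.80 for PEPR1, and each kept its sign. With 1.5-fold in place of 2-fold, 1 of the 10 was higher and 2 lower, 29 list genes were higher and 11 lower, and 1809 of all genes were higher and 2009 lower. With 4-fold, 4 list genes were higher and 1 lower, and 468 of all genes higher and 161 lower. With an assumed coefficient of variation of 0.2 in each library, 6 list genes were higher and 1 lower, and 638 of all genes higher and 362 lower. In both of these settings 0 of the 10 were called. The 2 changes of threshold and the wider interval account for these counts by construction. The counts of members, list genes and all genes stayed within 1.5 times the main ones with no count minimum, with a minimum of 50 counts and under the other scalings. No paired analysis was possible because each group holds 1 library, and for the same reason no library could be left out. Below the count minimum were 3 of 10 kept peptide precursors and 6 of 20 RBOH and calcium genes. Whether depth or low expression accounts for this was not tested.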

Other observations

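Of the heterotrimeric G-protein genes, whose products associate with FLS2 and BIK1, only AGB1, XLG2, AGG1 and AGG2 were in the lists. These differed little between the libraries apart from AGG1, and were chosen for mention after their values were seen. AGB1, the beta subunit gene, had 5693 counts with estradiol and 4396 in the control, a ratio of 1.05 (1.01 to 1.09). XLG2, an extra-large alpha subunit gene, had a ratio of 0.986 (0.939 to 1.03). AGG2 had a ratio of 1.00 (0.871 to 1.16), with a locus that overlaps 2 other genes, and AGG1 one of 1.45 (1.36 to 1.55). BIR1, a BAK1-interacting kinase gene whose mutant phenotype is suppressed by loss of SOBIR1, had 12540 counts with estradiol and 8571 in the control, a ratio of 1.19 (1.16 to 1.22), beside 1.32 for BAK1 and 1.41 for SOBIR1.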
